A study of Mus musculus with 12 samples.

Results

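Haem breakdown and iron handling were followed through 10 genes: the haem oxygenases Hmox1 and Hmox2, the biliverdin reductases Blvra and Blvrb, the ferritin chains Fth1 and Ftl1, the transferrin receptor Tfrc, the transporters Slc11a1 and Slc40a1, and the ferroxidase Cp. They were chosen by gene name with earlier results of these data known, and all 10 had a row among the 30130 genes of the table. The lowest value of any of them in any library was 109, so all 10 passed the filter on low values and stood among the 21415 genes tested. Bulk RNA of the proximal thoracic aorta was sequenced in 7 libraries from chronic proximal thoracic aortic aneurysms (cPTAA) and 5 libraries from sham-operated aortas. Aneurysms followed elastase laid around the aorta together with BAPN, an inhibitor of lysyl oxidase, the enzyme that crosslinks elastin and collagen. Sham animals had the operation and normal water. Both groups were male mice of the strain labelled C56BL/6J. Elastase, BAPN and any difference between the operations can therefore be compared with sham only as 1 condition. Age, the time after surgery and whether animals were pooled are not stated in the labels used here. The labels number the samples without naming animals, so each p-value rests on the spread among samples, which may be partly technical.

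Haem released from haemoglobin, myoglobin and other haem proteins is opened by haem oxygenase, which yields biliverdin, carbon monoxide and free iron. Biliverdin is reduced to bilirubin, and the iron is either stored inside ferritin or exported by ferroportin, the product of Slc40a1. Macrophages carry out most of this recycling in the body, since they take up old and damaged red cells. Cells sense free iron through iron regulatory proteins, which bind a hairpin in certain messenger RNAs called the iron-responsive element. Binding in a 5′ UTR holds back translation, and binding in the 3′ UTR of Tfrc protects the messenger RNA from decay.

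The elements are shown because they mark which of the 10 messenger RNAs carry this known switch. The mature RNA levels reported here do not measure the translational step. The transcripts of GENCODE release M21 (build GRCm38) were searched for a stem of 5 paired bases, allowing pairing of G with T, with an unpaired C on the 5′ side and a loop of CAGTGN in which N is A, C or T, on the transcript strand only. Sites are printed 5′ to 3′ with the loop in capitals.
Fth1 5′ UTR: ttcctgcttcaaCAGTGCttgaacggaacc
Ftl1 5′ UTR: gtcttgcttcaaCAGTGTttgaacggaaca
Slc40a1 5′ UTR: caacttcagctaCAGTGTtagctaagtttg
Tfrc 3′ UTR, element 1: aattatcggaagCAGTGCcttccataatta
Tfrc 3′ UTR, element 2: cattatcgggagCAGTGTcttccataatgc
Tfrc 3′ UTR, element 3: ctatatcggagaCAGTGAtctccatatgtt
Tfrc 3′ UTR, element 4: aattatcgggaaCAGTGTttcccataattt
The same search matched 23 of 20899 genes with a 5′ UTR (0.11%) and 100 of 21022 genes with a 3′ UTR (0.476%). Fth1, Ftl1 and Slc40a1 each had 1 match in the 5′ UTR, Tfrc had 4 in the 3′ UTR, and the other 6 genes had no match in either region. Elements that depart from this exact form would be missed.

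Values are the authors' normalised read counts, referred to below as values, and each library held 14078885 to 17493428 reads. The 12 marker genes of macrophages summed to 35955 to 66688 in cPTAA and 6614 to 25666 in sham libraries, and 11 of the 12 were called higher. For comparison, 12.9% of all tested genes were called higher and 11.1% lower, at a limma adjusted p under 0.05. All 12 brown adipocyte markers were called lower, with sums of 16500 to 66314 in cPTAA and 56953 to 150207 in sham libraries. This list includes the general adipocyte genes Adipoq, Plin1 and Cidec, so its sum and score are not of brown adipocytes alone. Smooth muscle markers, which define the aortic wall, were present in every library and summed to 65626 to 258173 in cPTAA and 206578 to 285246 in sham libraries, with 4 of 8 called lower. Fibroblast markers summed to 89568 to 224700 in cPTAA and 41426 to 70055 in sham libraries with 4 of 8 called higher, and endothelial markers to 7308 to 13287 in cPTAA and 10893 to 16667 in sham libraries with 3 of 8 called lower. Heart and skeletal muscle markers stood at 19427, 23612 and 126400 in cPTAA libraries 6, 7 and 9, against 1090 to 1573 in the other cPTAA libraries and 1086 to 6389 in sham libraries. Sham library 8 stood apart from the other sham libraries on the second principal component, which carried 26.5% of the variance. In bulk tissue, fewer cells of a type and less RNA per cell cannot be told apart, and the part of these marker levels in the results was not tested beyond the values given below.

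In aneurysms, 5 of the 10 genes were called higher and 0 lower at a limma adjusted p of 0.05. Those called were Hmox1, Blvrb, Slc11a1, Ftl1 and Cp. At an unadjusted p under 0.05 limma also gave 0 lower, and edgeR and DESeq2 on the recovered reads each called 5 higher and 0 lower. Over all tested genes, 12.9% were called higher and 11.1% lower (23.9% in either direction). Because the 10 genes were chosen with earlier results known, these shares describe them and do not test the set. The median log2 fold change was 0.48 over the 10 genes and -0.05 over all tested genes. Hmox1, Slc11a1 and Ftl1 had every cPTAA library above every sham library, which held for 8.02% of tested genes. No gene of the 10 had every cPTAA library below every sham library, which held for 4.95% of tested genes, so 3 of 10 were without overlap in either direction, against 13% of tested genes. Without cPTAA 6, 7 and 9, chosen after the data were seen, 4 genes were called higher, and likewise when sham 8 was also left out. Blvrb was the gene lost.

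**Figure D1:**
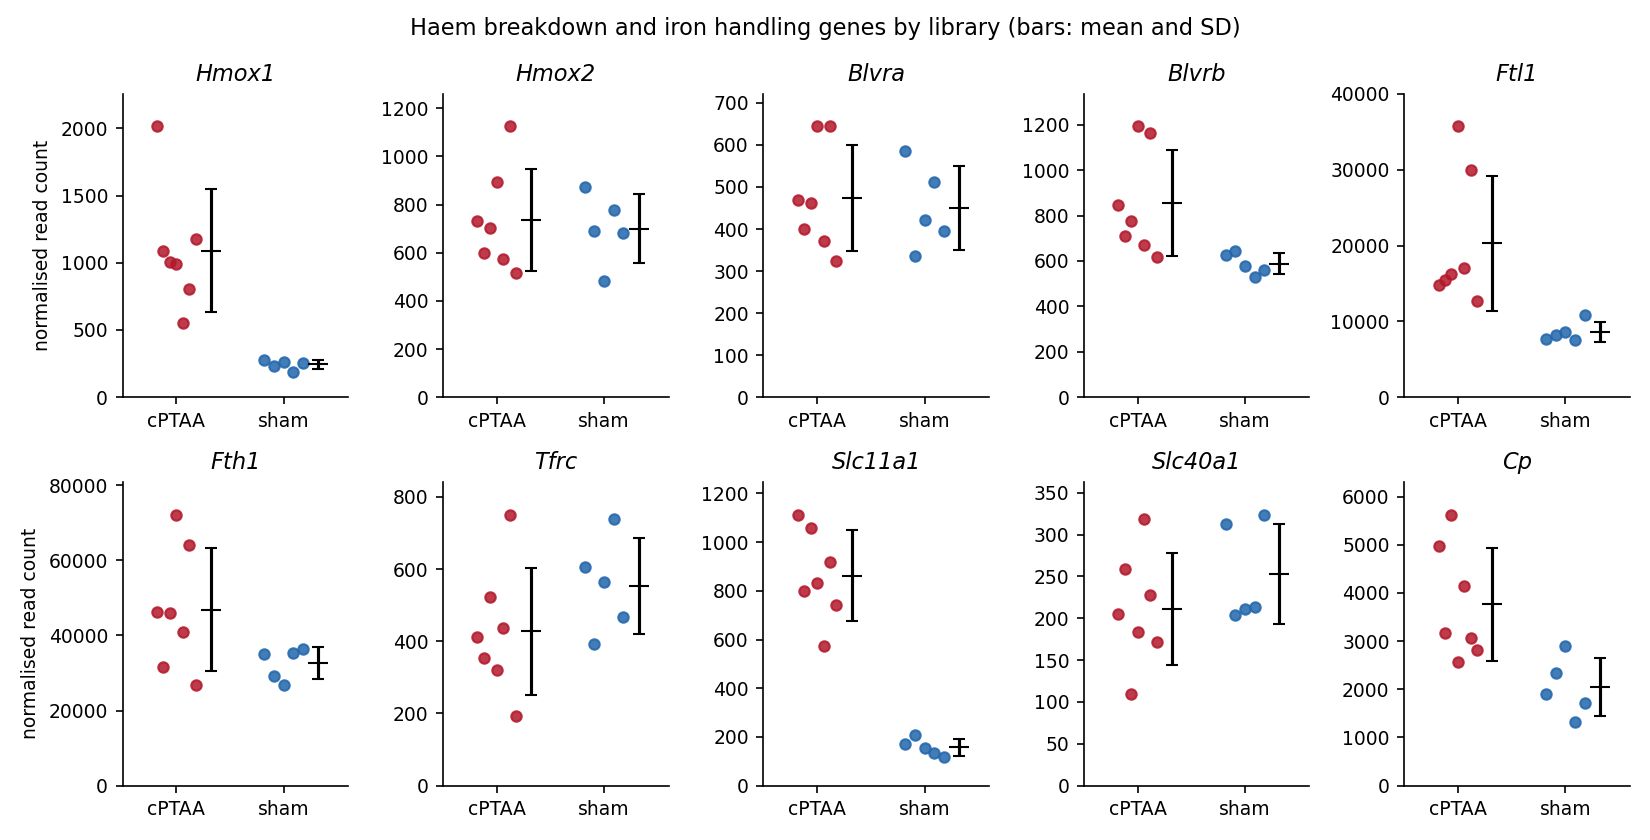
Normalised read count (vertical axis, starting at 0) of each of the 10 genes in 7 cPTAA libraries (left in each panel) and 5 sham libraries (right), with 1 point per library and bars for the mean and SD. Hmox1, Slc11a1 and Ftl1 show no overlap between the groups, while Hmox2 and Blvra overlap widely, each with 2 cPTAA libraries above every sham library.

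Hmox1 encodes the inducible haem oxygenase, the rate-limiting enzyme of haem breakdown. Its values in cPTAA libraries ran from 555 (library 7) through a median of 1006 to 2018 (library 2), against 280, 232, 260, 191 and 255 in sham libraries. Every cPTAA library stood above every sham library. The means were 1092 ± 457 in cPTAA and 244 ± 34.1 in sham libraries (SD, n = 7 and 5). The log2 fold change was 2.07 ± 0.24 (SE), a fold of 4.21 with a 95% interval of 2.95 to 6, at an adjusted p of 2.97e-05. Library 2 was set apart within its group, and without it the log2 fold change was 1.91 at an adjusted p of 2.92e-05.

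Hmox2, the constitutive haem oxygenase, ran from 515 (library 12) through a median of 701 to 1126 (library 9) in cPTAA libraries, against 871, 689, 483, 778 and 680 in sham libraries. The groups overlapped, with 2 cPTAA libraries above every sham library. The log2 fold change was 0.05 ± 0.20 with a 95% interval of -0.37 to 0.47 and an adjusted p of 0.887, and the interval of the fold ran from 0.772 to 1.39. Hmox2 overlaps Cdip1 on the opposite strand, and with no strand setting given their reads cannot be told apart. Cdip1 averaged 815 in cPTAA and 1618 in sham libraries.

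The ratio of Hmox1 to Hmox2 within a library does not depend on how libraries were scaled. Its median was 1.44 in cPTAA and 0.338 in sham libraries. The log2 ratio was 0.52 ± 0.70 in cPTAA and -1.50 ± 0.41 in sham libraries (SD, n = 7 and 5), with no overlap. The difference of 2.03 had an exact two-sided permutation p of 0.00253, the smallest that the splits of 7 and 5 libraries can give, and an adjusted p of 0.00379 over the 6 ratios tested. Hmox1 had no overlap on its own, as did Ftl1 and Slc11a1, so ratios with these genes are not results separate from theirs. How often ratios of other genes lack overlap was not computed.

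Blvra, which encodes the main biliverdin reductase of adult tissue, ran from 325 (library 12) through a median of 461 to 645 (library 9) in cPTAA libraries, against 585, 335, 421, 513 and 396 in sham libraries. The groups overlapped, with 2 cPTAA libraries above and 1 below every sham library. The change was 0.06 ± 0.20 on the log2 scale, with a 95% interval of -0.36 to 0.48 and an adjusted p of 0.864.

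Blvrb encodes a reductase that acts on the beta isomer of biliverdin and on flavins. It ran from 617 (library 12) through a median of 776 to 1194 (library 6) in cPTAA libraries, against 628, 644, 578, 530 and 562 in sham libraries. In 6 of 7 cPTAA libraries it was above every sham library, and library 12 lay inside the sham range. Blvrb rose by 0.50 ± 0.17 (log2), a fold of 1.41 with a 95% interval of 1.09 to 1.82, at an adjusted p of 0.0476. This call was lost when any 1 of cPTAA 2, 4, 6 or 9 or of sham 1, 5, 8, 10 or 11 was left out, with adjusted p between 0.0219 and 0.112 over all 12 libraries left out in turn. With no filter on low values it was also lost (adjusted p 0.0635).

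The log2 ratio of Blvrb to Blvra was 0.85 ± 0.05 in cPTAA and 0.41 ± 0.36 in sham libraries (SD, n = 7 and 5), a difference of 0.44 with an exact two-sided permutation p of 0.0202 and an adjusted p of 0.0242. The cPTAA libraries were tightly grouped between 0.75 and 0.92, while sham libraries were spread from 0.04 to 0.94 and 1 of them lay above every cPTAA library. Without any 1 of sham 1, 8, 10 or 11 the adjusted p was 0.0582. Without cPTAA 6, 7 and 9 it was 0.0952.

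**Figure D2:**
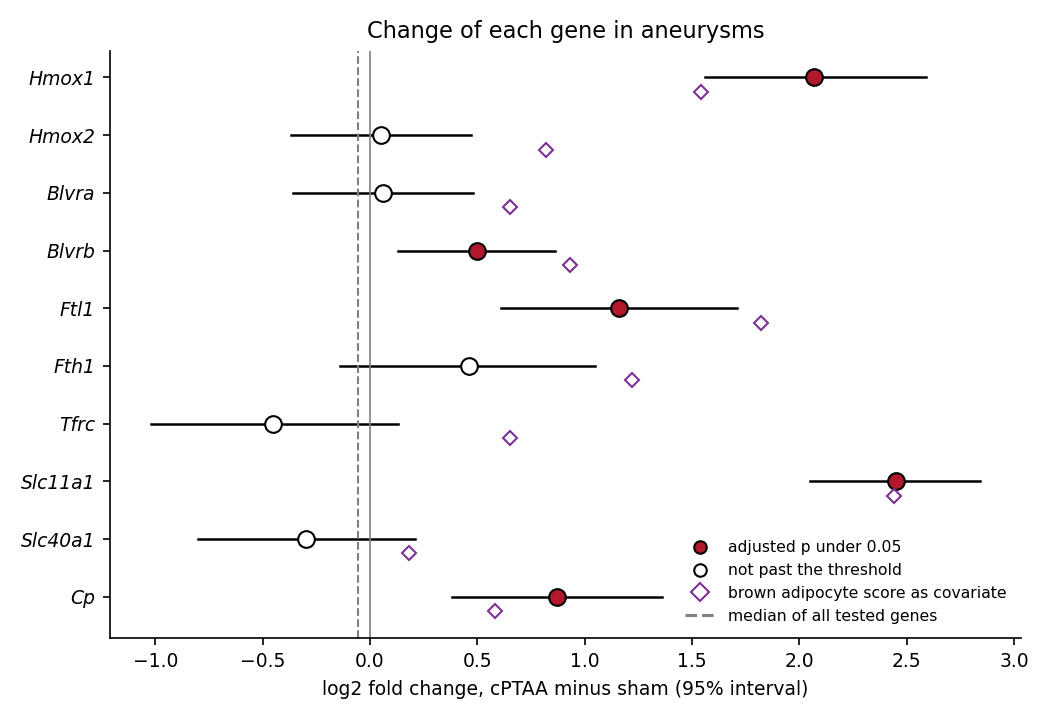
Log2 fold change of each gene, cPTAA minus sham (horizontal axis), as circles with 95% intervals, filled where the limma adjusted p was under 0.05, with diamonds for the value when a brown adipocyte score was added to the model and a dashed line at the median of all tested genes. Slc11a1 (2.45) and Hmox1 (2.07) lie farthest to the right, and 5 of the 10 intervals include 0.

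Ferritin is a shell of heavy and light chains that stores iron. Ftl1 encodes the light chain, which helps the iron core to form. Its values ran from 12707 (library 12) through a median of 16228 to 35766 (library 6) in cPTAA libraries, against 7623, 8211, 8545, 7582 and 10823 in sham libraries. Every cPTAA library stood above every sham library, with libraries 6 and 9 well above the rest. Ftl1 rose by 1.16 ± 0.26 (log2), a fold of 2.23 with a 95% interval of 1.52 to 3.26, at an adjusted p of 0.0044. Libraries 6 and 9 were among the 3 with high heart and skeletal muscle markers, and without those 3 the log2 fold change of Ftl1 was 0.80 at an adjusted p of 0.0013. Library 7, also among the 3, stood at 17010 for Ftl1, close to the 12707 to 16228 of the cPTAA libraries with low such markers.

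Fth1 encodes the heavy chain, which oxidises iron on its way into the shell. It ran from 26890 (library 12) through a median of 45900 to 72218 (library 6) in cPTAA libraries, against 35126, 29326, 26861, 35206 and 36422 in sham libraries. In 5 of 7 cPTAA libraries it was above every sham library, and libraries 3 and 12 lay inside the sham range. The log2 fold change was 0.46 ± 0.28 with a 95% interval of -0.14 to 1.05 and an adjusted p of 0.262. Without cPTAA 6, 7 and 9 the log2 fold change was 0.18.

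The balance of the messenger RNAs of the chains differed between the groups. In values not corrected for gene length, Fth1 was a median of 2.13 times Ftl1 in cPTAA and 3.57 times Ftl1 in sham libraries. Per kilobase of exon, Ftl1 averaged 15137 and Fth1 13500 in cPTAA. The ratio therefore shows a difference between groups and not which messenger RNA was more abundant. The log2 ratio was 1.23 ± 0.25 in cPTAA and 1.93 ± 0.26 in sham libraries (SD, n = 7 and 5), a difference of -0.70 with no overlap, at an exact two-sided permutation p of 0.00253 and an adjusted p of 0.00379. Both genes have close copies in the mouse genome, and reads could be split or lost between a gene and its copies, so the levels of Fth1 and Ftl1 are uncertain to that extent. The copy with the most reads, Ftl1-ps1, averaged 418 in cPTAA and 174 in sham libraries, far below Ftl1 itself. Ftl1 also overlaps Gm22133 on its own strand and Gm10252 on the opposite strand, and Gm10252 averaged 0.941 in cPTAA and 0.233 in sham libraries.

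Tfrc encodes transferrin receptor 1, through which cells take up transferrin-bound iron. It ran from 192 (library 12) through a median of 413 to 751 (library 9) in cPTAA libraries, against 605, 393, 565, 740 and 466 in sham libraries. In 3 cPTAA libraries it was below every sham library, and in library 9 above every one. Its log2 fold change was -0.45 ± 0.27 with a 95% interval of -1.02 to 0.13 and an adjusted p of 0.258. The direction turned when a brown adipocyte score was added to the model, with a log2 fold change of 0.65. That score differed strongly between the groups, so the model could hardly separate it from the condition, here and for the genes below.

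Set against ferritin within each library, Tfrc was lower in aneurysms. The log2 ratio of Tfrc to Fth1 was -6.80 ± 0.51 in cPTAA and -5.90 ± 0.34 in sham libraries (SD, n = 7 and 5). The groups did not overlap, with -7.81 to -6.41 in cPTAA and -6.29 to -5.57 in sham libraries. The difference of -0.90, a ratio of 0.535, had an exact two-sided permutation p of 0.00253 and an adjusted p of 0.00379.

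Slc11a1 encodes NRAMP1, a metal transporter of the phagosome membrane in macrophages and other phagocytes. It showed the largest fold change of the 10 genes. Its values ran from 573 (library 7) through a median of 830 to 1113 (library 2) in cPTAA libraries, against 172, 209, 153, 133 and 119 in sham libraries. The groups were far apart, and the spread within cPTAA was smaller than for any other of the genes, at a coefficient of variation of 21.5%. Slc11a1 rose by 2.45 ± 0.18 (log2), a fold of 5.45 with a 95% interval of 4.15 to 7.14, at an adjusted p of 2.22e-06. Over all 24 alternatives run, its log2 fold change stayed between 2.35 and 2.57.

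Slc40a1 encodes ferroportin, the iron exporter of the cell membrane. It ran from 109 (library 4) through a median of 205 to 319 (library 7) in cPTAA libraries, against 313, 204, 211, 213 and 324 in sham libraries. The upper values of both groups were alike, and 3 of the 7 cPTAA libraries lay below every sham library. The log2 fold change was -0.30 ± 0.24 with a 95% interval of -0.80 to 0.21 and an adjusted p of 0.405, so the interval reached down to a ratio of 0.573. With a brown adipocyte score in the model the log2 fold change was 0.18.

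Slc11a1 and Slc40a1 both move iron out of a compartment, the phagosome and the cell. In values not corrected for gene length, the median ratio of Slc11a1 to Slc40a1 was 4.31 in cPTAA and 0.629 in sham libraries. Per kilobase of exon, Slc11a1 averaged 42.4 and Slc40a1 28.1 in sham libraries, so the ratio is read only between groups. The log2 ratio was 2.06 ± 0.74 in cPTAA and -0.68 ± 0.54 in sham libraries (SD, n = 7 and 5), a difference of 2.74 with no overlap, at an exact two-sided permutation p of 0.00253 and an adjusted p of 0.00379. The ratio of Slc40a1 to Tfrc showed no such separation. Its log2 values were -0.98 ± 0.75 in cPTAA and -1.13 ± 0.49 in sham libraries (SD, n = 7 and 5), with an exact two-sided permutation p of 0.669.

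Cp encodes ceruloplasmin, the copper enzyme that oxidises exported iron so that transferrin can bind it, made by the liver for plasma and by other cells locally. It ran from 2559 (library 6) through a median of 3159 to 5626 (library 4) in cPTAA libraries, against 1906, 2345, 2908, 1328 and 1723 in sham libraries. In 5 of 7 cPTAA libraries it was above every sham library, and libraries 6 and 12 lay below sham library 8. Cp rose by 0.87 ± 0.23 (log2), a fold of 1.83 with a 95% interval of 1.3 to 2.58, at an adjusted p of 0.0121. With a brown adipocyte score in the model its log2 fold change was 0.58 at an adjusted p of 0.378. The 8 hepatocyte markers together summed to 210 to 625 in cPTAA and 108 to 190 in sham libraries, below Cp in every library. Nearly all of that sum was Ahsg, the fetuin gene and the 1 marker of the 5 tested that was called higher, at a mean of 383 in cPTAA and 136 in sham libraries, while the defining marker Alb was listed at 0 in 3 of 7 cPTAA and 4 of 5 sham libraries. The part of these cells, and of the fibroblast markers given above, in the level of Cp was not tested. Cp overlaps Hps3 on the opposite strand, which averaged 526 in cPTAA and 349 in sham libraries.

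**Figure D3:**
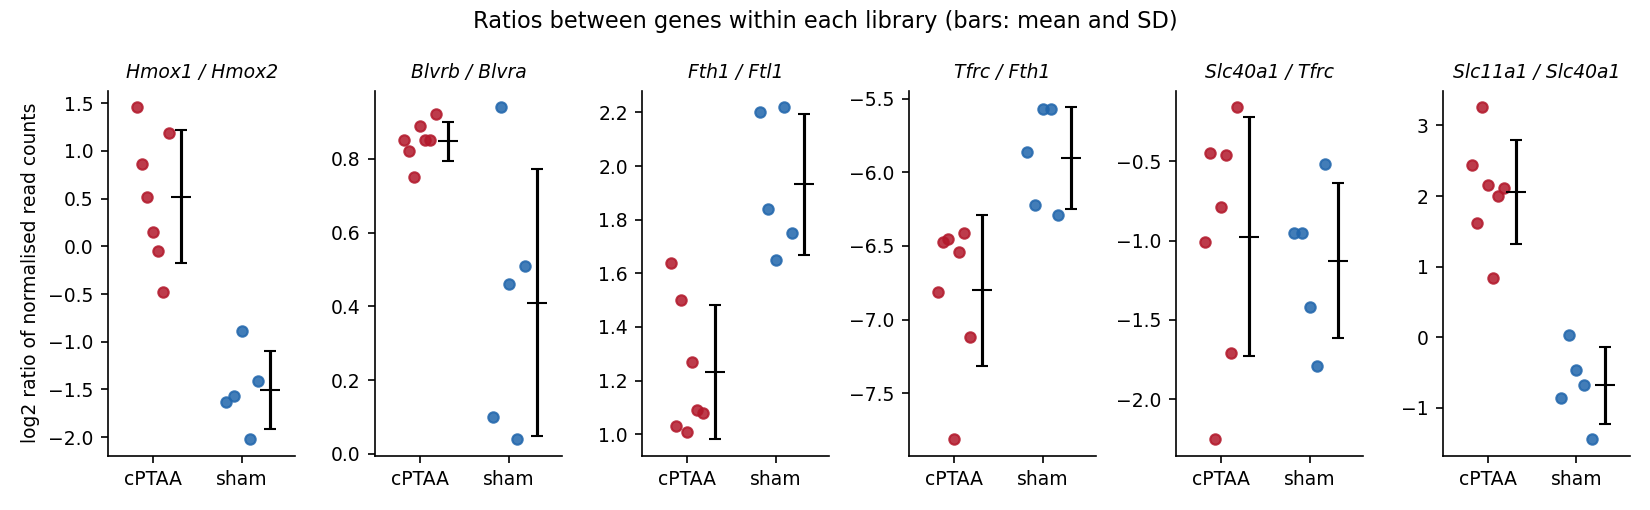
Log2 ratio of normalised read counts between 2 genes of the same library (vertical axis, its range set for each panel), in 7 cPTAA libraries (left) and 5 sham libraries (right), with bars for the mean and SD. Of the 6 ratios, Hmox1/Hmox2, Fth1/Ftl1, Tfrc/Fth1 and Slc11a1/Slc40a1 show no overlap between groups. Hmox1, Ftl1 and Slc11a1 had no overlap on their own, and the share without overlap among ratios of other genes was not computed.

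Levels of different genes were compared per kilobase of merged exon length (GENCODE M21). That length joins the exons of every annotated transcript and can exceed that of the RNA present, so the order depends on it. It was 3469 bases for Fth1, 1340 for Ftl1, 9000 for Slc40a1 and 3705 for Slc11a1. Uncorrected means gave the reverse order for Fth1 (46830) and Ftl1 (20283) in cPTAA libraries. The same held for Slc40a1 (253) and Slc11a1 (157) in sham libraries. In aneurysms the order from high to low was Ftl1, Fth1, Hmox1, Cp, Hmox2, Blvrb, Slc11a1, Blvra, Tfrc and Slc40a1. In sham libraries it was Fth1, Ftl1, Hmox2, Cp, Blvrb, Blvra, Hmox1, Tfrc, Slc11a1 and Slc40a1. Hmox1 thus stood in place 3 in aneurysms and place 7 in sham aortas, at 623 ± 261 per kb in cPTAA and 139 ± 19.5 per kb in sham libraries. The ferritin chains led in both groups by a wide margin. Ftl1 stood at 15137 ± 6616 per kb and Fth1 at 13500 ± 4715 per kb in cPTAA, closer together than their SD, while in sham libraries Ftl1 stood at 6386 ± 993 and Fth1 at 9394 ± 1218 per kb. Hmox1 was not separated from the next gene in cPTAA, Cp at 393 ± 123 per kb. From Hmox1 through Cp, Hmox2 at 331 ± 95.9 per kb, Blvrb at 307 ± 84.1 per kb and Slc11a1 to Blvra at 194 ± 51.9 per kb, each pair of neighbours in cPTAA differed by less than the larger of their SDs. In sham libraries Hmox2 stood at 316 ± 65 per kb, above Cp at 213 ± 63.4, Blvrb at 211 ± 17 and Blvra at 184 ± 40.5 per kb, and the neighbours among Cp, Blvrb and Blvra differed by less than the larger of their SDs. Slc11a1 stood at 233 ± 50.1 per kb in cPTAA and 42.4 ± 9.55 per kb in sham libraries, and Tfrc at 69.1 ± 28.5 per kb in cPTAA and 89.6 ± 21.5 per kb in sham libraries. Slc40a1 was lowest in both groups, at 23.4 ± 7.43 per kb in cPTAA and 28.1 ± 6.67 per kb in sham libraries.

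The genes also varied together among libraries of the same group. As a description over deviations from the group means in 12 libraries, Fth1 correlated with Hmox2, Blvra, Blvrb and Ftl1 at Pearson r of 0.83 to 0.84, and Blvrb with Ftl1 at 0.85. Hmox1 and Slc11a1 correlated at 0.57, and Slc40a1 and Slc11a1 at -0.55. All these values share library depth and scaling. Fth1, Ftl1, Blvrb, Hmox2 and Blvra each had their 2 highest values in cPTAA libraries 6 and 9, which had high heart and skeletal muscle markers. The part of those libraries in the correlations was not tested. Among genes outside the 10, named after their values were seen, Med8 reached 0.98 with Fth1 and Hras 0.98 with Ftl1. Such r values are therefore not particular to the 10 genes. By the same measure, among 12666 genes with a mean of at least 50, the genes most like Hmox1 were Ptx3 (r = 0.93), Rap2b and Nup50 (0.90), Agtrap (0.87) and Scamp5 (0.85). Those most like Blvrb were Phf23 (0.98), Gm12693 and Nosip (0.97), and Ap5s1 and Psma7 (0.96). Those most like Tfrc were Srxn1 (0.93), 4930429F24Rik (0.91), Slc25a48 and Cipc (0.90) and Zfp672 (0.89). The nearest genes to Slc40a1 were less alike, with Bcl6b at 0.81, Zfp647, Gabrq and Bcdin3d at 0.78 and Kifc2 at 0.77. Named after its values were seen, the gene most like Slc11a1 was the macrophage marker Cd68 (0.91).

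Other genes of haem and iron handling were read from the same fit. Of 83 genes listed, 82 had a row and 81 were tested. In aneurysms 10 were called higher and 10 lower (12.3% each), near the 12.9% and 11.1% of all tested genes, with a median log2 fold change of -0.10. These counts depended on single libraries. Without cPTAA 9 they were 16 higher and 17 lower, without sham 1 the lower count was 6, and without sham 10 or sham 11 it was 5. Without cPTAA 6, 7 and 9 they were 17 and 18. With a brown adipocyte score in the model they were 3 and 3, and of the genes called without it only Hpx, Lcn2 and Cybrd1 stayed called.

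Among genes that capture and move haem, 2 of 12 rose (16.7%, against 12.9% of all tested genes) and 1 fell (8.33%, against 11.1%). Hpx, the plasma haem scavenger hemopexin, averaged 85.5 ± 92.2 in cPTAA and 10.9 ± 8.08 in sham libraries (log2 fold change 2.48 ± 0.69, adjusted p 0.0167), with an adjusted p of 0.0597 without cPTAA 6, 7 and 9 and sham 8. Lrp1, the receptor for haem bound to hemopexin and for many other ligands, averaged 11098 ± 2259 in cPTAA and 6513 ± 922 in sham libraries (0.76 ± 0.17, adjusted p 0.0043), and its log2 fold change with the brown adipocyte score was 0.36 (adjusted p 0.403). Flvcr1, known as a haem exporter, averaged 223 ± 32.4 in cPTAA and 326 ± 95.8 in sham libraries (-0.51 ± 0.17, adjusted p 0.0455), a call lost when any 1 of 9 libraries was left out. The Flvcr1 call was also lost with scaling by library totals (adjusted p 0.131) and with no filter on low values (0.0605). The haemoglobin side of the route did not pass the threshold with all libraries. Hp, which encodes haptoglobin, averaged 35159 ± 14432 in cPTAA and 21918 ± 6318 in sham libraries at an adjusted p of 0.234 (0.0477 without cPTAA 6, 7 and 9), and its receptor Cd163 averaged 647 ± 474 in cPTAA and 704 ± 244 in sham libraries at an adjusted p of 0.572. The haem transporter of the phagolysosome, Slc48a1, averaged 4500 ± 1191 in cPTAA and 3481 ± 176 in sham libraries at an adjusted p of 0.229, with an adjusted p of 0.0336 without cPTAA 12.

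Of 15 genes of iron uptake and reduction, 2 rose and 2 fell (13.3% each, against 12.9% and 11.1% of all tested genes). Lcn2, which encodes lipocalin 2, a protein that binds iron-carrying siderophores, averaged 1362 ± 908 in cPTAA and 75.2 ± 20.3 in sham libraries (log2 fold change 3.84 ± 0.47, adjusted p 4.57e-05). Steap3, an endosomal ferric reductase that works with Tfrc, averaged 1191 ± 296 in cPTAA and 687 ± 139 in sham libraries (0.78 ± 0.18, adjusted p 0.00529). Cybrd1, a ferric reductase best known from the gut, averaged 10.4 ± 6.21 in cPTAA and 61.9 ± 24.7 in sham libraries (-2.55 ± 0.43, adjusted p 0.000542). Ncoa4, the receptor that delivers ferritin to lysosomes, averaged 999 ± 237 in cPTAA and 1481 ± 321 in sham libraries (-0.58 ± 0.20, adjusted p 0.0444), a call lost when any 1 of 8 libraries was left out. The Ncoa4 call was also lost with scaling by library totals (adjusted p 0.142) and with no filter on low values (0.0573). Transferrin itself, Trf, averaged 5396 ± 1228 in cPTAA and 5274 ± 1460 in sham libraries (adjusted p 0.898). The importer Slc11a2 averaged 662 ± 79 in cPTAA and 821 ± 110 in sham libraries at an adjusted p of 0.0899. The importer Slc39a14 averaged 1720 ± 646 in cPTAA and 1142 ± 121 in sham libraries at an adjusted p of 0.16, and without cPTAA 9 its adjusted p was 0.038. Without cPTAA 6, 7 and 9 it was higher by 0.92 (log2, adjusted p 0.000293) and with voom by 0.68 (adjusted p 0.00497). With the brown adipocyte score its log2 fold change was -0.07 (adjusted p 0.933).

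Of the 9 tested genes of iron release and hepcidin control, 1 rose (11.1%, against 12.9% of all tested genes). Hfe, a partner of the transferrin receptors, averaged 826 ± 196 in cPTAA and 539 ± 86.6 in sham libraries (log2 fold change 0.60 ± 0.17, adjusted p 0.0167), with an adjusted p of 0.0546 without sham 11. Heph, a membrane ferroxidase related to Cp, averaged 270 ± 132 in cPTAA and 157 ± 57.5 in sham libraries at an adjusted p of 0.226, and without cPTAA 9 its adjusted p was 0.0358. Without cPTAA 6, 7 and 9 it was higher by 1.23 (log2, adjusted p 0.00597) and with voom by 0.88 (adjusted p 0.0236). With the brown adipocyte score its log2 fold change was -0.67 (adjusted p 0.454). Hamp, the gene of the hormone hepcidin, which removes ferroportin from the cell surface, was near the floor in both groups at 3.4 ± 3.76 in cPTAA and 1.08 ± 1.5 in sham libraries.

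Among 7 genes of iron and oxygen sensing, 1 rose (14.3%, against 12.9% of all tested genes) and 3 fell (42.9%, against 11.1%). Aco1, which encodes iron regulatory protein 1, averaged 1856 ± 309 in cPTAA and 3037 ± 556 in sham libraries (log2 fold change -0.71 ± 0.15, adjusted p 0.00351), and its log2 fold change with the brown adipocyte score was -0.29 (adjusted p 0.448). Ireb2, which encodes iron regulatory protein 2, averaged 806 ± 219 in cPTAA and 835 ± 90.5 in sham libraries (adjusted p 0.763). The hypoxia-inducible factors moved in opposite directions. Hif1a averaged 2088 ± 373 in cPTAA and 1511 ± 75.2 in sham libraries (0.45 ± 0.13, adjusted p 0.0239), a call lost without sham 1, 8 or 11 and with the brown adipocyte score (0.12, adjusted p 0.741). Epas1 averaged 3627 ± 375 in cPTAA and 6090 ± 1286 in sham libraries (-0.73 ± 0.14, adjusted p 0.00185). Its messenger RNA is also known to carry an iron-responsive element, but the search above gave no match in it. Egln3, an oxygen-sensing prolyl hydroxylase, averaged 130 ± 73.5 in cPTAA and 292 ± 43.1 in sham libraries (-1.31 ± 0.30, adjusted p 0.00562), and with a brown adipocyte score in the model its log2 fold change was 0.03.

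No gene of the pathways that use iron was called higher by limma. Of the 8 haem synthesis genes, limma, edgeR and DESeq2 each called 0 in either direction, with a limma median log2 fold change of -0.39. At an unadjusted p under 0.05, 3 of them were lower by limma, and voom with sample weights called 7 lower. Of 11 mitochondrial iron and iron-sulfur cluster genes 4 fell (36.4%, against 11.1% of all tested genes). They were Cisd1 (-1.27 ± 0.37, adjusted p 0.0228), Isca1 (-0.91 ± 0.25, adjusted p 0.0167), Isca2 (-0.86 ± 0.25, adjusted p 0.0199) and Glrx5 (-0.85 ± 0.25, adjusted p 0.0232). Leaving out 1 sham library ended the call without sham 10 for all 4, without sham 11 for Isca2, Cisd1 and Glrx5, and without sham 1 for Cisd1 and Glrx5, with adjusted p of 0.05 to 0.0627. All 4 took the opposite sign when a brown adipocyte score was added to the model, at 0.63 for Cisd1, 0.27 for Isca1, 0.31 for Isca2 and 0.33 for Glrx5. That score was 8.12 to 11.20 in cPTAA and 11.20 to 12.64 in sham libraries. The groups barely met on it, so the model could hardly separate the score from the condition. The part of brown adipocytes in these levels was not tested.

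Hmox1 is a known target of the transcription factor NRF2 and is repressed by BACH1. A list of 7 genes held this pair and related factors, and 2 of them rose (28.6%, against 12.9% of all tested genes). These were Maff, a small partner protein of both (710 ± 246 in cPTAA and 288 ± 36.3 in sham libraries, log2 fold change 1.23 ± 0.23, adjusted p 0.00109), and Spic, a factor of haem-recycling macrophages (17.5 ± 7.22 in cPTAA and 2.82 ± 3.17 in sham libraries, 2.54 ± 0.55, adjusted p 0.00356). NRF2 itself, Nfe2l2, averaged 1525 ± 282 in cPTAA and 1502 ± 176 in sham libraries (adjusted p 0.973). Bach1 averaged 896 ± 362 in cPTAA and 610 ± 56.6 in sham libraries (adjusted p 0.275), but without cPTAA 6, 7 and 9 it was higher by 0.95 (log2, adjusted p 5.23e-05) and with voom by 0.63 (adjusted p 0.0121). Of 12 other NRF2 target genes 2 rose (16.7%, near the 12.9% of all tested genes). The cystine transporter gene Slc7a11 averaged 38.8 ± 16.8 in cPTAA and 8.04 ± 7.17 in sham libraries (2.35 ± 0.54, adjusted p 0.00521), and the glutathione reductase gene Gsr 874 ± 140 in cPTAA and 520 ± 98.5 in sham libraries (0.75 ± 0.14, adjusted p 0.00151). With the brown adipocyte score neither passed, at 1.36 for Slc7a11 (adjusted p 0.371) and 0.34 for Gsr (adjusted p 0.346). The often used NRF2 readout Nqo1 averaged 299 ± 117 in cPTAA and 272 ± 42.1 in sham libraries, with a 95% interval of -0.52 to 0.60 for the log2 fold change. Gclm, another such readout, averaged 551 ± 21.2 in cPTAA and 563 ± 143 in sham libraries, with an interval of -0.31 to 0.33. The median over the 12 targets was -0.01.

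**Figure D4:**
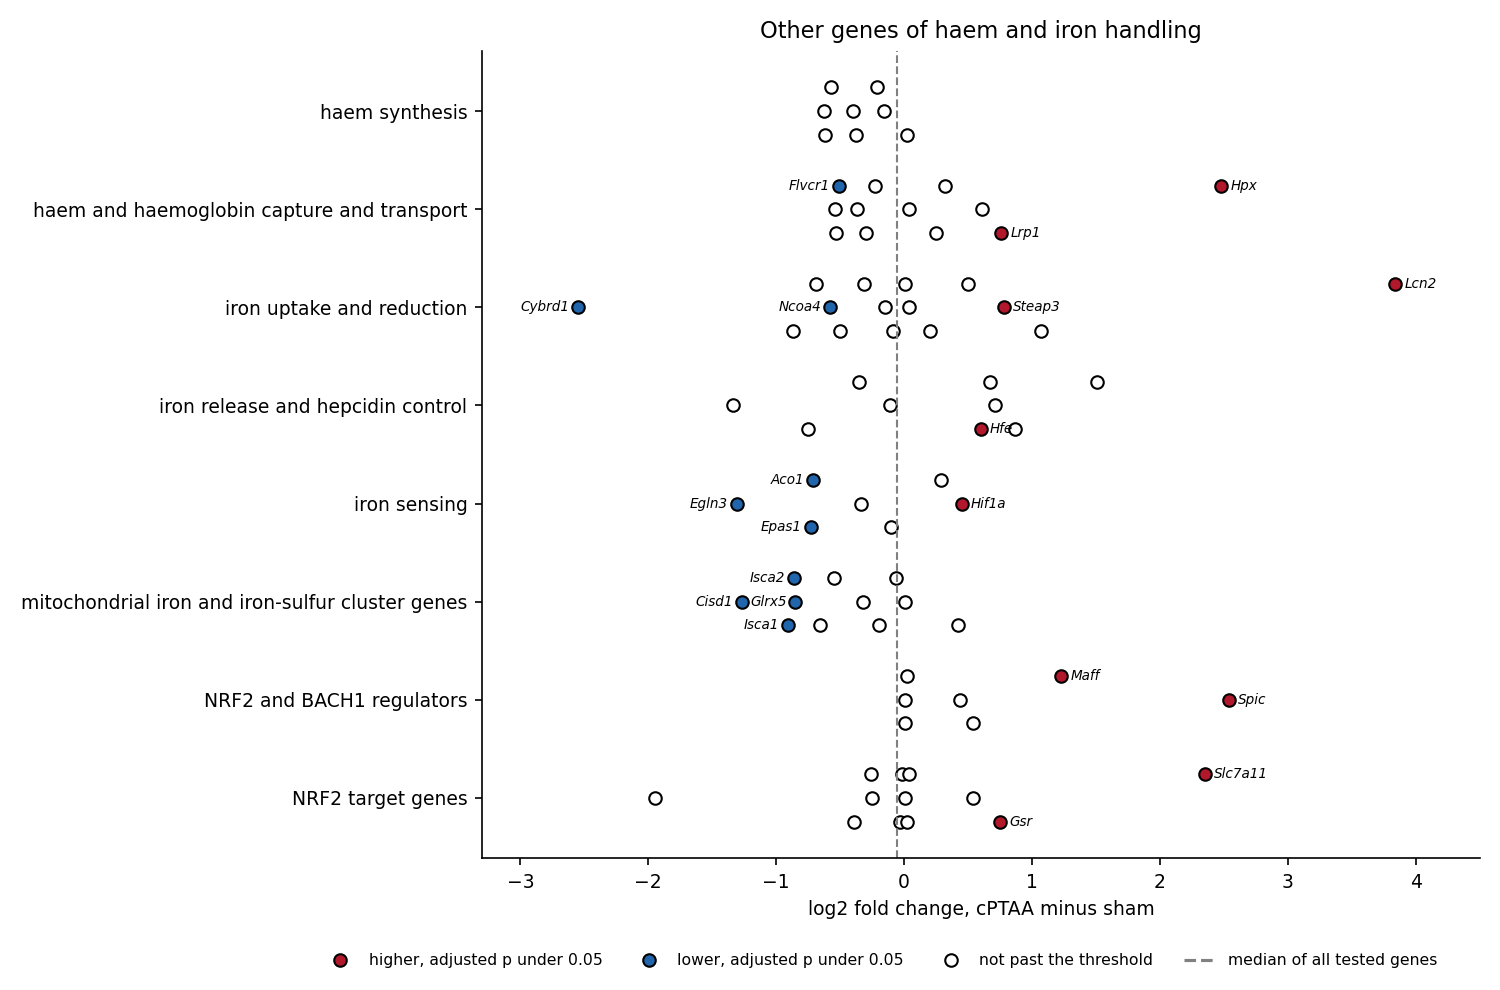
Log2 fold change, cPTAA minus sham (horizontal axis), of the 81 tested genes of 8 lists of haem and iron handling, with 1 point per gene, filled and named where the limma adjusted p was under 0.05, and a dashed line at the median of all tested genes. The 10 higher genes reach 3.84 (Lcn2) and the 10 lower genes reach -2.55 (Cybrd1), while the haem synthesis list has no called gene.

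Erythroid, macrophage and neutrophil marker genes were read from the same fit. Neither haem nor red cell content was measured, and erythroid messenger RNA levels do not give the amount of either. The 11 erythroid genes tested had a median log2 fold change of -0.04 and sums of 1481 to 17140 in cPTAA and 2061 to 8251 in sham libraries. Hbb-bs averaged 3160 ± 2562 in cPTAA and 2341 ± 971 in sham libraries (adjusted p 0.887). Hba-a1 averaged 3073 ± 2474 in cPTAA and 2134 ± 829 in sham libraries (adjusted p 0.794). Macrophage genes were higher by a median log2 fold change of 2.65, which is larger than that of Hmox1 and of Slc11a1. Lyz2 averaged 24464 ± 4660 in cPTAA and 7290 ± 7623 in sham libraries, where sham 8 stood at 20798 and the others at 2234 to 5095, and C1qa averaged 7356 ± 1950 in cPTAA and 1422 ± 575 in sham libraries. The neutrophil list, a further possible source of Slc11a1, had 1 of 7 tested called higher (Csf3r), 14.3% against 12.9% of all tested genes. Sums over all 9 markers were 132 to 1366 in cPTAA and 125 to 351 in sham libraries.

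Within the 7 cPTAA libraries, each of the 10 genes was set against macrophage, erythroid and brown adipocyte scores, which are the mean log2(value + 1) of the markers. Of these 30 relations, 0 passed the adjusted threshold by Pearson's r or Spearman's rho, and 3 had an unadjusted Pearson p under 0.05. Slc11a1 correlated with the macrophage score at r = 0.88 (exact permutation p = 0.00992, adjusted p = 0.298) and rho = 0.68 (p = 0.11, adjusted p = 0.521). Hmox1 correlated with it at r = 0.83 (exact permutation p = 0.0349, adjusted p = 0.349) and rho = 0.82 (p = 0.0341, adjusted p = 0.521). Without the 2 libraries farthest from the median score, r was 0.51 for Slc11a1 and 0.37 for Hmox1 (n = 5, exact permutation, adjusted p = 0.793 for each). Both relations thus depended on the libraries with the most extreme scores, as far as 5 libraries can show. Slc40a1 went the other way at r = -0.77 (exact permutation p = 0.0595, adjusted p = 0.371) and rho = -0.75 (p = 0.0663, adjusted p = 0.521). Without the same 2 libraries its r was -0.96 (n = 5, exact permutation, adjusted p = 0.75). Tfrc correlated with the brown adipocyte score at r = 0.86 (exact permutation p = 0.0308, adjusted p = 0.349) and rho = 0.54 (p = 0.236, adjusted p = 0.707). Without the 2 libraries farthest from the median of that score, its r was -0.37 (n = 5, exact permutation, adjusted p = 0.793). The 5 sham libraries were fewer than the 6 taken as the least for a correlation, and none was computed in them. The values without 2 libraries also fall below that minimum and are description only.

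**Figure D5:**
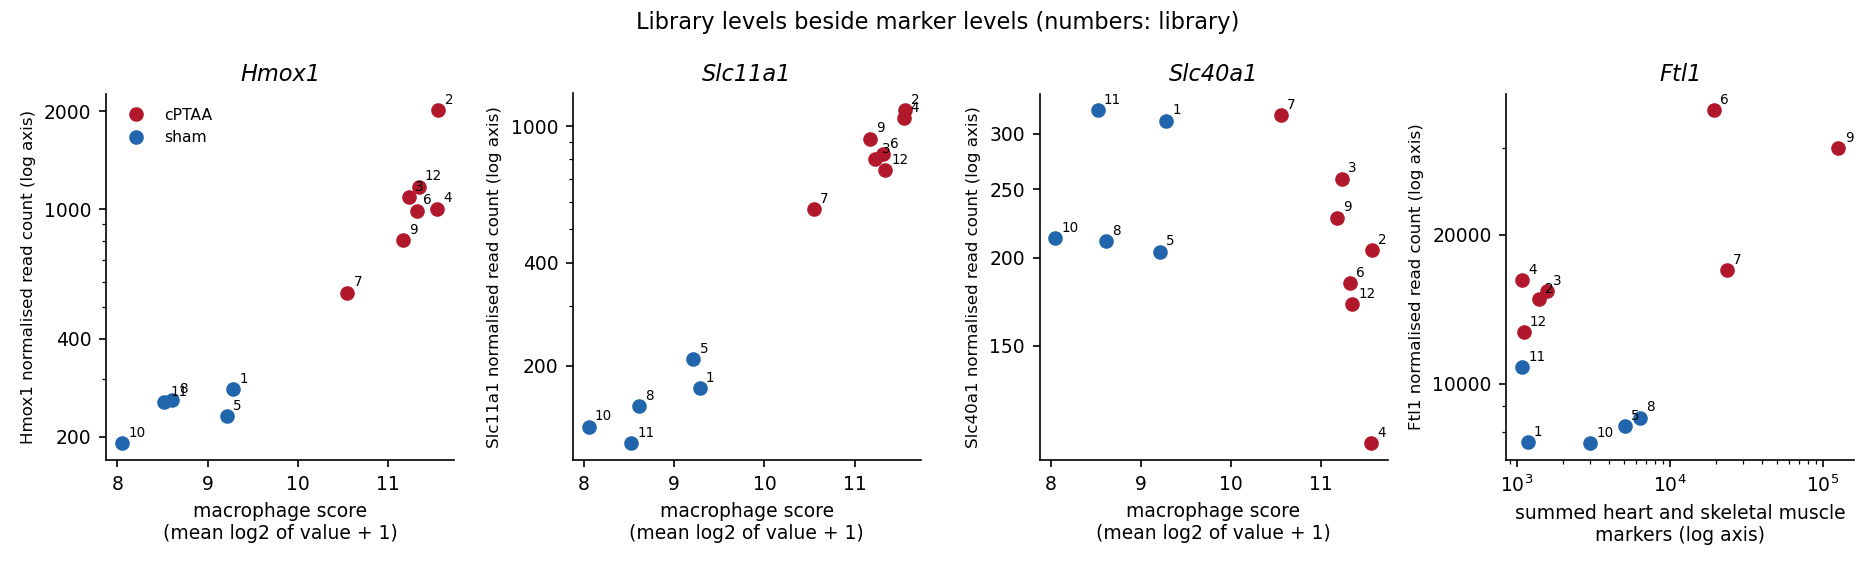
Normalised read count of Hmox1, Slc11a1 and Slc40a1 against the macrophage score, and of Ftl1 against the summed heart and skeletal muscle markers, with 1 numbered point per library, cPTAA in red and sham in blue (log axes, except the score). Hmox1 and Slc11a1 are lowest among cPTAA in library 7, which has the lowest macrophage score of that group (10.55). Ftl1 is highest in libraries 6 and 9, and far lower in library 7, which also has high heart and skeletal muscle markers.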

How the data were processed

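Poly-A RNA of 7 cPTAA and 5 sham libraries was measured. What the authors deposited is a signal for each gene, a read count that they had normalised. Per the submitters' processing notes, the tools were featureCounts 1.5.0-p3, HISAT2 2.0.5 and StringTie on the build GRCm39. Strand setting, scaling and filters are not given in the sources used here. Checked on the values, 100% were whole reads within 0.02 reads once divided by what 1 read is worth in each library (0.8631 to 1.164 units), which gave back 14078885 to 17493428 reads a library. Sampling noise at this depth is small beside the spread between libraries, and no pair of replicates agreed within it (lowest chi-square per degree of freedom 20.5).

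Groups were taken from the sample titles. Genes with a value of at least 1 in at least 5 libraries (21415 of 30130) were fitted on log2(value + 1) with limma 3.58.1 in R 4.3.3 with a mean-variance trend, and p-values were adjusted by Benjamini-Hochberg over all of them at a threshold of 0.05. A fold change is cPTAA minus sham on the scale of log2(value + 1), which understates changes of low genes. The fit called 2754 genes higher and 2374 lower. The count tests were run on the recovered reads as alternatives: edgeR 4.0.16 called 2622 higher and 2261 lower of 15839 genes, and DESeq2 1.42.0 called 3259 and 2631 of 20632. The 6 ratios were tested by exact two-sided permutation of the group labels. Other alternatives changed the pseudocount, filter, scaling or weights, added a brown adipocyte marker score as covariate, or left out libraries.

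The 10 genes and all lists were chosen with earlier results of these data known. Named were the 10 genes, the called genes of each list where a list had 5 or fewer in a direction, 18 further pathway genes whatever their p, the 2 most abundant markers of a list where a list bears on the results, and the 5 genes most like Hmox1, Slc40a1, Blvrb and Tfrc. Chromosome positions were not used, since the reference at hand is another build. Iron-responsive elements were read from GENCODE M21 transcripts. The call of 1 marker gene is not reported here.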

Additional observations from a re-analysis of the deposited data

Results flagged for a closer look

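Hmox1 in cPTAA library 2, at a normalised read count of 2018, lay far from the other cPTAA libraries, the next highest of which was library 12 at 1174. The gap was 0.577 of the range of the 7 values, above Dixon's critical value for 7 samples. It was the 1 group of values so marked among the 32 examined, and chance marks about 1 in 20. The same library had the highest Slc11a1 value (1113). Its macrophage score of 11.56 was the highest of the 12 libraries, while its macrophage marker sum of 59045 lay inside the cPTAA range of 35955 to 66688.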

How the results depend on the processing

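Over 47 named genes, 1124 comparisons with an alternative gave 974 with the same direction and side of the threshold, 70 no longer past it, 13 newly past it and 67 with the opposite sign. Hmox1, Slc11a1 and Ftl1 stayed called under all alternatives run, at 1.54 to 2.42, 2.35 to 2.57 and 0.80 to 1.82. Genes among the 10 called higher numbered 4 to 5 when 1 library was left out and 3 with the brown adipocyte score as covariate, where Hmox1 was 1.54 (adjusted p 0.0482), Slc11a1 2.44 (0.00621), Ftl1 1.82 (0.0301), Blvrb 0.93 (0.0663) and Cp 0.58 (0.378). That score differs strongly between the groups, so the covariate takes up much of the difference tested, and 601 genes were called higher and 346 lower. Scaling by library totals moved the median of all genes to 0.0613 and the calls to 3360 higher and 1830 lower, against 2754 and 2374; voom with sample weights gave 3406 and 3552. Pathway genes called higher were 17 with voom, 3 with the covariate, 17 without cPTAA 6, 7 and 9, 16 also without sham 8, and 8 to 16 leaving out 1 library. Those called lower were 24, 3, 18, 20 and 5 to 17 in the same order. Marker genes called lower were 1 with the covariate and 14 to 20 leaving out 1 library, and those called higher 17 to 19. The log2 ratio Blvrb/Blvra was 0.43 (adjusted p 0.0952) without cPTAA 6, 7 and 9, 0.44 (0.171) also without sham 8, and 0.35 to 0.57 leaving out 1 library. Slc40a1/Tfrc was -0.02 to 0.36 leaving out 1 library. Cause was not tested for any of these. Opposite signs were seen mostly for genes near 0. With voom these were Hmox2 -0.14, Blvra -0.05, Ireb2 0.04, Nfe2l2 -0.04, Nqo1 -0.04, Hbb-bs -0.17 and Hba-a1 -0.06. Without cPTAA 6, 7 and 9 they were Hmox2 -0.12, Blvra -0.11, Cd163 0.33, Ireb2 0.21, Nfe2l2 -0.14, Nqo1 -0.36, Gclm -0.01, Hbb-bs -0.60 and Hba-a1 -0.52. Also without sham 8 they were Hmox2 -0.25, Blvra -0.13, Cd163 0.26, Ireb2 0.18, Nfe2l2 -0.10, Nqo1 -0.29, Hbb-bs -0.52 and Hba-a1 -0.43. With the covariate they were Slc40a1 0.18, Tfrc 0.65, Egln3 0.03, Isca1 0.27, Isca2 0.31, Cisd1 0.63, Glrx5 0.33, Trf -0.45, Slc39a14 -0.07, Heph -0.67, Bach1 -0.37 and Gclm -0.13. With library totals Ireb2 was 0.03, and Gclm was -0.05 with edgeR and -0.03 with DESeq2. Leaving out 1 library, Hmox2 ran from -0.08 to 0.13, Blvra -0.04 to 0.16, Trf -0.05 to 0.18, Ireb2 -0.16 to 0.02, Nfe2l2 -0.05 to 0.07, Nqo1 -0.08 to 0.22, Gclm -0.11 to 0.10, Hbb-bs -0.17 to 0.46 and Hba-a1 -0.08 to 0.53. No paired analysis was possible because no library number occurs in both groups. The libraries' depth limits only genes of few reads, such as Hamp.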

Other observations

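Ltf, the gene of the iron-binding protein lactoferrin, was not chosen by the rule for named genes and is given after its values were seen. In cPTAA libraries it ran from 0.98 in library 9 to 2005 in library 2. In sham libraries it stood at 33523 in library 8, 1373 in library 11, and 1.05, 3.9 and 5.43 in the others. Hjv, which encodes hemojuvelin, a co-receptor in the control of hepcidin, was seen in the same way. It stood at 151, 135 and 603 in cPTAA libraries 6, 7 and 9, which had the high heart and skeletal muscle markers, and at 18.5 to 33.2 in the other cPTAA libraries. In sham libraries it ran from 6.98 to 87.6, with library 8 highest.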
